A study of Homo sapiens with 7 samples.

Results

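The genes described here are 10 components of the Wnt and beta-catenin pathway, chosen by symbol from the 58174 genes of the deposited table (CTNNB1, APC, AXIN1, AXIN2, LGR5, LEF1, TCF7L2, NKD1, RNF43 and ZNRF3), and each symbol matched 1 row. Their abundance was measured by total RNA-seq in the human hepatocellular carcinoma line Huh-7. The cells had been transfected with a control siRNA (siC, 3 libraries) or with a pool of siRNAs against IGF2BP1 (siIGF2BP1, 4 libraries, which the titles call siImp1), and RNA was taken 72 h later. All libraries come from this single line, and the control cells had been transfected as well. The labels do not say whether replicates were separate cultures, so p-values measure the spread between these libraries, which may be technical.

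Wnt proteins are secreted ligands that bind Frizzled receptors and the co-receptors LRP5 and LRP6. Without ligand, a cytoplasmic complex built on AXIN and APC lets the kinases CK1 and GSK3 phosphorylate beta-catenin, which is then degraded. With ligand, beta-catenin accumulates, enters the nucleus and activates genes together with factors of the TCF/LEF family. Several of these genes encode inhibitors of the pathway itself and so form negative feedback. In liver the pathway sets the gene programme of hepatocytes around the central vein, and it is often activated by mutation in hepatocellular carcinoma. IGF2BP1, the depleted protein, binds mRNAs and affects their stability.

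The depletion was examined first. IGF2BP1 (ENSG00000159217) averaged 82.2 ± 2.03 FPKM in siC (SD, n = 3) against 15.8 ± 0.583 FPKM after depletion (SD, n = 4), which is 19.2% of siC. FPKM scale the reads of a gene by its length and by library size, so that levels of different genes can be set side by side. The change was -2.37 on the log2 scale (SE 0.06, limma adjusted p = 1.16e-05).

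Libraries held from 12826550 to 33212205 reads on genes. Each of the 10 hepatocyte markers examined, albumin and alpha-fetoprotein among them, was above 1 FPKM, with a sum from 6138 to 7664 FPKM per library in siC and from 7019 to 7190 FPKM in siIGF2BP1. The 5 endothelial and the 5 fibroblast or stellate cell markers each summed to at most 3.32 FPKM per library. The 4 leukocyte markers summed to between 148 and 164 FPKM per library in siC and between 115 and 131 FPKM in siIGF2BP1, nearly all of it from LYZ (157 against 122 FPKM on average, limma adjusted p = 0.0222). CD14 differed the other way, with 0.892 against 2.25 FPKM (limma adjusted p = 0.0338), and PTPRC and CD3E were near 0. Their part in the results below was not tested. The library siC replicate 3 stood apart. Its distance from the other siC libraries had an SD of 0.699 over genes on the log2 scale, against 0.417 to 0.518 for the other 6 libraries, and followed the GC content of the transcript across 14711 genes (Spearman's rho -0.426). The same rho was 0.433 and 0.304 for siC replicates 1 and 2, whose distances are taken from means that include replicate 3, and ran from -0.386 to 0.262 in siIGF2BP1. Results are therefore also given without it where that turned a direction or changed a call.

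The 14839 genes whose mean over all libraries reached 1 FPKM were tested with limma on log2(FPKM + 0.1), and an adjusted p of at most 0.01 was taken as the threshold. Of the 10 genes, 7 passed this filter. AXIN2, LEF1 and NKD1 did not, and their changes come from a fit without the filter (34319 genes). Among the 7 genes tested, 1 passed the threshold, LGR5, which was higher in siIGF2BP1. Of all genes tested 3.93% passed, 1.65% higher and 2.28% lower. In the fit without the filter 1.03% passed, and none of the 3 low genes was among them, at unadjusted limma p-values of 0.338 for AXIN2, 0.115 for LEF1 and 0.00204 for NKD1. The groups did not overlap for 1 of the 7 genes, against 27.0% of all genes tested. Over the 10 genes in the fit without the filter they did not overlap for 3 (LGR5, NKD1 and LEF1), against 16.1%.

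In siC cells the levels spanned from CTNNB1 at 221 FPKM, the gene of rank 165 by siC mean among all genes of the table, to NKD1 at 0.163 FPKM. Between them stood ZNRF3 (12.2 FPKM), LGR5 (6.83), APC (6.72), TCF7L2 (4.88), RNF43 (4.04), AXIN1 (3.01), AXIN2 (0.716) and LEF1 (0.175 FPKM). The neighbours LGR5 and APC, TCF7L2 and RNF43, and LEF1 and NKD1 did not differ beyond their spread. In siIGF2BP1 cells LGR5, at 12.0 FPKM, stood beside ZNRF3 at 12.7 FPKM, and NKD1, at 0.483 FPKM, stood above LEF1 at 0.114 FPKM.

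**Figure D1:**
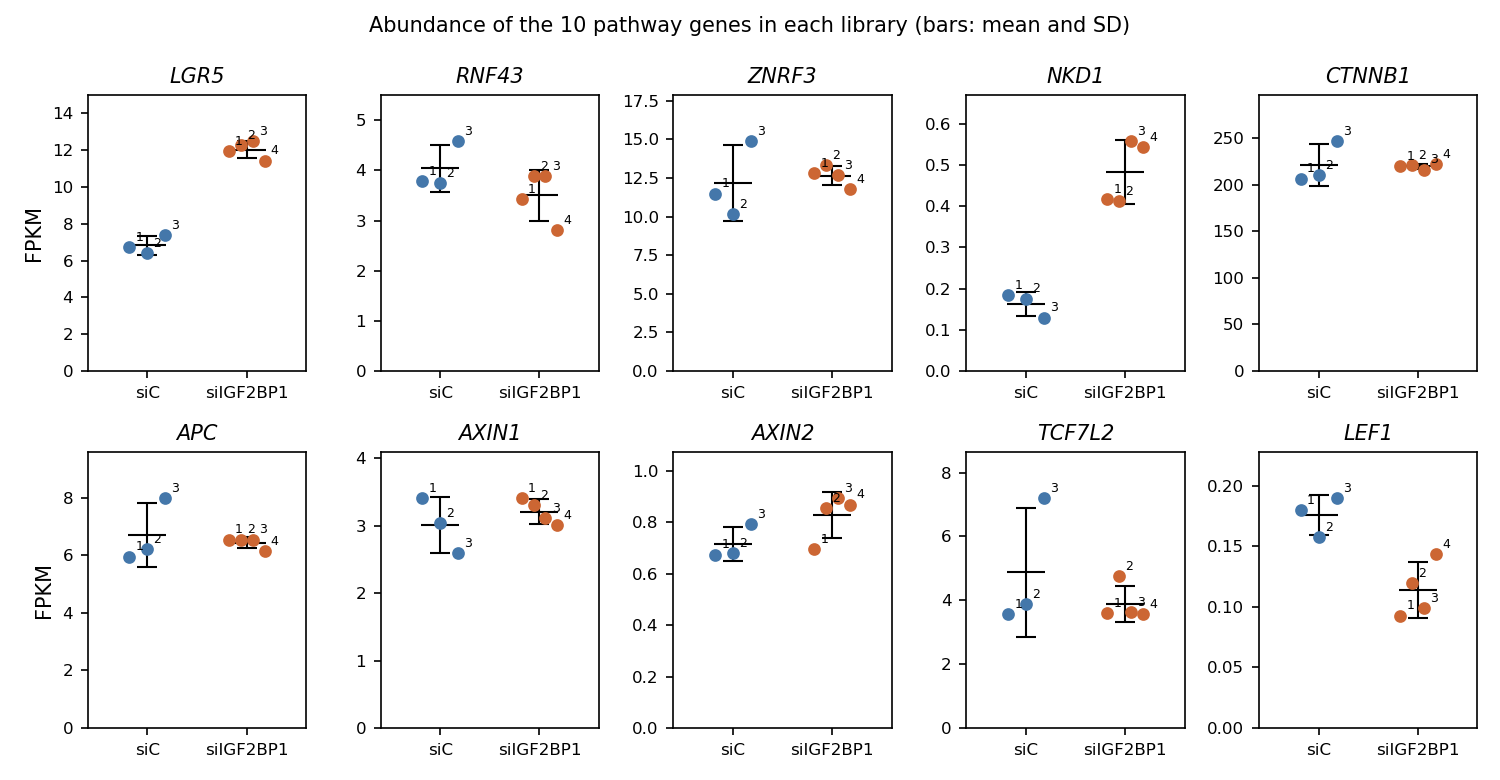
Abundance in FPKM (vertical axes, linear and from 0, each with its own range) of the 10 pathway genes in the siC (blue) and siIGF2BP1 (orange) libraries. Points are libraries with their replicate number, and bars give the mean and SD. LGR5 and NKD1 are higher in every siIGF2BP1 library than in any siC library, LEF1 is lower in each, and the groups overlap for the other 7 genes.

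The first group acts at the cell surface. LGR5 (ENSG00000139292, chromosome 12, 71439798 to 71586310, plus strand) encodes a receptor for R-spondins, which strengthen Wnt signals, and is itself a known Wnt target that marks stem cells of several epithelia. LGR5 was at 6.73, 6.39 and 7.37 FPKM in siC replicates 1 to 3. In siIGF2BP1 replicates 1 to 4 it was at 11.9, 12.3, 12.5 and 11.4 FPKM. Every siIGF2BP1 library thus lay well above every siC library. The mean rose from 6.83 ± 0.502 FPKM (SD, n = 3) to 12.0 ± 0.465 FPKM (SD, n = 4), or 1.76-fold. On the log2 scale this was a rise of 0.81 (SE 0.07, 95% interval from 0.64 to 0.98, limma adjusted p = 0.00117), with at least 533 reads per library. LGR5 also passed in each of the 7 fits that left out 1 library, with a change from 0.76 to 0.87 and an adjusted p of at most 0.00881 (limma). It passed with each other alternative except the replicate block, under which 0 genes of the table passed and LGR5 had a log2 change of 0.83 (limma adjusted p = 0.10). Its exons share 3.98% of their bases with a gene model on the other strand, which was not analysed here.

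RNF43 (ENSG00000108375, chromosome 17, 58353676 to 58417595, minus strand) and ZNRF3 (ENSG00000183579, chromosome 22, 28883572 to 29057488, plus strand) encode membrane ubiquitin ligases that remove Frizzled receptors and that R-spondin bound to LGR receptors holds back. RNF43 was at 3.79, 3.75 and 4.59 FPKM in siC and at 3.43, 3.89, 3.89 and 2.81 FPKM in siIGF2BP1 (replicates in order). The groups overlapped, and siIGF2BP1 replicate 4 was the lowest library. The log2 change of RNF43 was -0.20 (95% interval from -0.53 to 0.12, limma adjusted p = 0.419). In the annotation used here 68.35% of the RNF43 exon bases are shared with another gene model on its strand (ENSG00000285897), which is not among the genes of the deposited table. ZNRF3 was at 11.5, 10.2 and 14.9 FPKM in siC and at 12.8, 13.3, 12.7 and 11.8 FPKM in siIGF2BP1. The siC values enclosed all the siIGF2BP1 values. Its log2 change was 0.07 (95% interval from -0.23 to 0.37, limma adjusted p = 0.786), with 0.22 without siC replicate 3 (limma adjusted p = 0.0673) and -0.05 without siC replicate 2. With libraries weighted by REML array weights, whose estimation did not converge, ZNRF3 passed the threshold (log2 change 0.30, limma adjusted p = 0.00173). With weights estimated gene by gene it did not (0.23, limma adjusted p = 0.0377). Of all 14839 genes, 5414 passed with the REML weights and 2744 with the gene-by-gene weights, against 583 without weights.

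NKD1 (ENSG00000140807, chromosome 16, 50548396 to 50649249, plus strand) encodes a cytoplasmic protein that binds Dishevelled, the relay downstream of Frizzled, and dampens the signal. It is known as a feedback target of the pathway. NKD1 had low values, at 0.184, 0.176 and 0.129 FPKM in siC and at 0.418, 0.413, 0.559 and 0.544 FPKM in siIGF2BP1. All siIGF2BP1 libraries exceeded the highest siC library, by more than the spread within either group. These values rest on 70, 98 and 31 reads in siC and on 132, 135, 129 and 123 reads in siIGF2BP1, over a gene length of 17425 bases. The mean FPKM was 2.97 times that of siC. On the log2(FPKM + 0.1) scale, which understates the change of such a low gene, the difference was 1.15 (SE 0.24, 95% interval from 0.58 to 1.72), and it did not pass the threshold in the fit without a filter (limma adjusted p = 0.0535). With voom, which weighs the reads themselves by their precision, the log2 difference was 1.5 and passed (limma adjusted p = 0.000847). It passed as well when protein-coding genes alone were fitted without the filter (limma adjusted p = 0.00333), and over all 20 alternatives the adjusted p ran from 0.000847 to 0.388. How many of all genes passed in the voom and protein-coding fits without the filter was not counted.

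**Figure D2:**
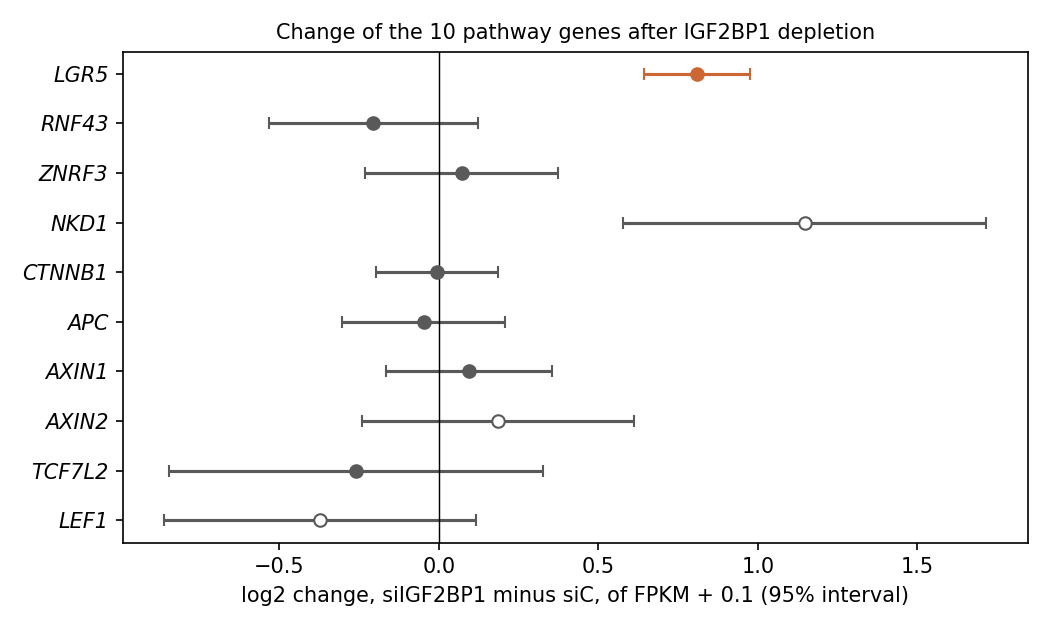
Log2 change (horizontal axis, siIGF2BP1 minus siC, of FPKM + 0.1) of the 10 pathway genes with its 95% interval. Open symbols are genes under 1 FPKM, from the fit without the filter, and orange marks an adjusted p of at most 0.01. LGR5 (0.81) alone is orange, NKD1 (1.15) has the largest estimate, and the intervals of the other 8 genes include 0.

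Beta-catenin itself is encoded by CTNNB1 (ENSG00000168036, chromosome 3, 41194741 to 41260096, plus strand), and serves both as the coactivator of the pathway and as a link between cadherins and the cytoskeleton. CTNNB1 was at 207, 210 and 247 FPKM in siC and at 220, 221, 217 and 222 FPKM in siIGF2BP1. The siIGF2BP1 libraries lay close together and inside the range of the siC libraries, of which replicate 3 was the highest. The siC libraries averaged 221 ± 22.4 FPKM (SD, n = 3) and the siIGF2BP1 libraries 219.96 ± 2.40 FPKM (SD, n = 4). The log2 change was -0.01 (limma adjusted p = 0.981) with a 95% interval from -0.20 to 0.19 and at least 18982 reads per library. Without siC replicate 3 it was 0.08 (limma adjusted p = 0.147), and median centring (0.02) and quantile normalization (0.13) turned its direction too. The regulation of beta-catenin by phosphorylation acts on the protein, which these data do not measure.

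The scaffold proteins of the destruction complex are APC, a tumour suppressor of colorectal cancer, and the related AXIN1 and AXIN2, of which AXIN2 is also a widely used target gene of the pathway. APC (ENSG00000134982, chromosome 5, 112707518 to 112846239, plus strand) was at 5.95, 6.21 and 8.0 FPKM in siC and at 6.54, 6.55, 6.55 and 6.14 FPKM in siIGF2BP1. Here too siC replicate 3 was the highest library and the groups overlapped. The log2 change of APC was -0.05 (95% interval from -0.30 to 0.21, limma adjusted p = 0.834), and 0.08 without siC replicate 3.

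AXIN1 (ENSG00000103126, chromosome 16, 287440 to 352723, minus strand) was at 3.41, 3.04 and 2.59 FPKM in siC and at 3.41, 3.30, 3.11 and 3.01 FPKM in siIGF2BP1. In this gene siC replicate 3 was the lowest library. The log2 change of AXIN1 was 0.10 (95% interval from -0.16 to 0.36, limma adjusted p = 0.656), and -0.01 without siC replicate 3. AXIN2 (ENSG00000168646, chromosome 17, 65528563 to 65561648, minus strand) was at 0.675, 0.681 and 0.792 FPKM in siC and at 0.697, 0.857, 0.895 and 0.870 FPKM in siIGF2BP1, from 57 to 114 reads per library. In siIGF2BP1, 3 of the 4 libraries were above the highest siC library, and the groups overlapped through replicate 1. The log2 change of AXIN2 was 0.19 (95% interval from -0.24 to 0.61, limma adjusted p = 0.695). AXIN2 shares 25.3% of its exon bases with another gene model on its strand (ENSG00000266076), which had a mean of 0.0145 FPKM. How reads on the shared bases were assigned was not examined here, and it may affect the levels of both.

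TCF7L2 and LEF1 are DNA-binding partners of beta-catenin. TCF7L2 (ENSG00000148737, chromosome 10, 112950247 to 113167678, plus strand) was at 3.56, 3.87 and 7.20 FPKM in siC and at 3.60, 4.75, 3.62 and 3.57 FPKM in siIGF2BP1. A single siC library, replicate 3, was well above the others, and in siIGF2BP1 replicate 2 stood above the rest. The log2 change of TCF7L2 was -0.26 (95% interval from -0.84 to 0.33, limma adjusted p = 0.582), and 0.05 without siC replicate 3. A gene model on the other strand shares 4.45% of its exon bases and had a mean of 0.237 FPKM. LEF1 (ENSG00000138795, chromosome 4, 108047545 to 108168956, minus strand), itself a target of the pathway in many cells, was at 0.179, 0.157 and 0.190 FPKM in siC and at 0.0926, 0.119, 0.0985 and 0.144 FPKM in siIGF2BP1. Each siIGF2BP1 library was below each siC library. The values rest on 21, 27 and 14 reads in siC and on 9, 12, 7 and 10 reads in siIGF2BP1. The mean FPKM was 64.7% of that of siC. On the log2(FPKM + 0.1) scale, which understates the change here too, the difference was -0.37. It did not pass the threshold (95% interval from -0.86 to 0.12, limma adjusted p = 0.485). At this depth a change of LEF1 could not be resolved.

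Among the 6 genes that are known both as components and as targets of the pathway, the mean in siIGF2BP1 was thus higher for LGR5, NKD1, AXIN2 and ZNRF3 (the last not without siC replicate 2) and lower for LEF1 and RNF43, and of these only LGR5 passed the threshold.

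The distance of siC replicate 3 from the mean of siC replicates 1 and 2 was above 0 for 8 of the 10 genes and below 0 for AXIN1 and NKD1. TCF7L2 was the farthest, at 0.94 on the log2(FPKM + 0.1) scale, with a GC content of 45.6% in its longest transcript. AXIN1, whose longest transcript has the highest GC content of the 10 (63.8%), was at -0.31, and APC, with the lowest (40.5%), was at 0.39. LGR5 was at 0.17, well inside its change after depletion. After removal of the trend with GC content from each library, the log2 change was 0.80 for LGR5 (limma adjusted p = 0.000363), -0.26 for TCF7L2 and -0.01 for CTNNB1.

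**Figure D3:**
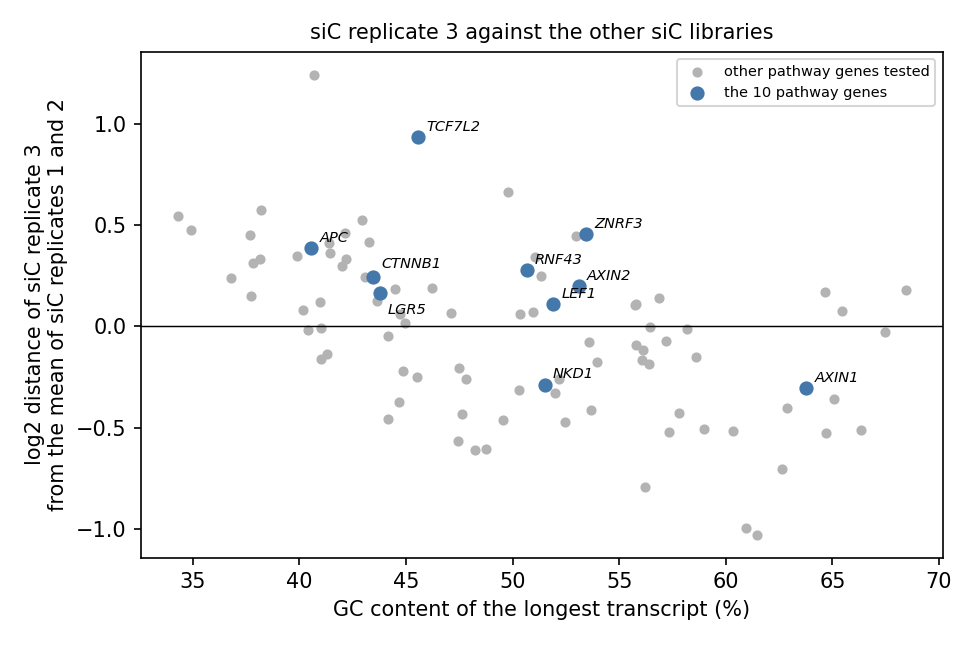
Distance of siC replicate 3 from the mean of siC replicates 1 and 2 (vertical axis, log2 of FPKM + 0.1) against the GC content of the longest transcript (horizontal axis, %) for the 10 pathway genes (blue) and the other pathway genes tested (grey). TCF7L2 (0.94) is the farthest of the 10 genes and AXIN1 (-0.31) the lowest, at the highest GC content.

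To set these genes in their pathway, 144 other genes in 11 lists were followed by role. Of these, 82 passed the filter, and 7 passed the threshold, 3 higher and 4 lower. This is 8.54% of those tested, beside 3.93% of all genes. The lists were written with earlier results of these data known, so the first share is not independent of the data. At an unadjusted p under 0.05, 15 were lower and 14 higher of the 82, beside 14.8% and 11.0% of all genes. Their median log2 change was -0.04, and that of all genes tested was -0.02.

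Upstream of the receptors the cells had little ligand RNA. Of the 19 Wnt genes, none reached 1 FPKM and 5 were listed at 0 in each library. WNT3 and WNT11, named after their values were seen, had the highest values, with 0.490 to 0.528 and 0.272 to 0.494 FPKM in siC and 0.431 to 0.627 and 0.225 to 0.444 FPKM in siIGF2BP1. WLS and PORCN, which serve the secretion and the acylation of Wnt proteins, differed by -0.41 and -0.27 on the log2 scale (limma adjusted p = 0.207 and 0.390). Of the R-spondins and their receptors other than LGR5, only LGR4 was tested. LGR4 averaged 45.5 ± 8.85 FPKM in control cells (SD, n = 3) and 40.5 ± 0.524 FPKM after depletion (SD, n = 4). Its log2 change was -0.15 (limma adjusted p = 0.492), with 0.0040 without siC replicate 3. LGR5 was thus the less abundant of the pair in both groups.

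Of 16 receptors and co-receptors 13 were tested, and 1 passed, FZD2, which was lower. FZD2, a Frizzled receptor, was at 2.34, 2.14 and 2.1 FPKM in siC and at 0.915, 1.11, 1.04 and 1.06 FPKM in siIGF2BP1. These groups were clearly apart, with a log2 change of -1.02 (SE 0.14, limma adjusted p = 0.00542), from at least 29 reads per library. The co-receptors LRP5 and LRP6, the most abundant of the list, differed on the log2 scale by 0.14 and 0.22 (limma adjusted p = 0.498 and 0.0570). LRP6 passed without siC replicate 3 (log2 change 0.26, limma adjusted p = 0.00732). FZD7, named after its values were seen, was at 10.9 FPKM in siC and 14.6 FPKM in siIGF2BP1 and just missed the threshold (log2 difference 0.42, limma adjusted p = 0.0129). Without siC replicate 3 it passed (0.36, limma adjusted p = 0.00564), as it did at the same threshold with 7 other alternatives. The median of the list was 0.04.

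Of 16 extracellular inhibitors 4 were tested and none passed, with 2 higher and none lower at an unadjusted p under 0.05 (limma). DKK1, which blocks LRP5 and LRP6 and is a Wnt target in other cells, was abundant, with 69.1, 72.6 and 77.4 FPKM in siC and 88.9, 89.3, 86.1 and 88.7 FPKM in siIGF2BP1. The siIGF2BP1 libraries were all higher, and the log2 difference of 0.27 did not pass the threshold (limma adjusted p = 0.0315). DKK1 did pass without siC replicate 3 (0.32, limma adjusted p = 0.00294), after removal of the GC trend (0.27, limma adjusted p = 0.0085) and with array weights of either kind. The secreted DKK3, a divergent relative of DKK1, was at 3.48, 3.65 and 3.04 FPKM in siC and at 3.73, 4.14, 4.39 and 4.39 FPKM in siIGF2BP1, with a log2 difference of 0.29 (limma adjusted p = 0.111). WIF1, a secreted Wnt binder under 1 FPKM and named after its values were seen, was at 0.198 to 0.290 FPKM in siC and 0.488 to 0.676 FPKM in siIGF2BP1. Its mean FPKM was 2.48 times that of siC. The log2 difference, understated by the pseudocount, was 1.03 in the fit without the filter (limma adjusted p = 0.0693).

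Of 12 Dishevelled proteins and their regulators 6 were tested and none passed, with 3 lower and none higher at an unadjusted p under 0.05 (limma) and a median of -0.21. DVL1 averaged 20.3 ± 0.589 FPKM in control cells (SD, n = 3) and 16.1 ± 0.694 FPKM after depletion (SD, n = 4), a log2 difference of -0.33 (limma adjusted p = 0.0147). It passed without siC replicate 3 (-0.34, limma adjusted p = 0.00754), with protein-coding genes only (limma adjusted p = 0.00942) and with array weights of either kind. For DVL3 the log2 difference was -0.29 (limma adjusted p = 0.0957). The groups did not overlap for either gene. VANGL1, named after its values were seen, averaged 5.82 FPKM in siC and 4.48 FPKM in siIGF2BP1 (log2 difference -0.37, limma adjusted p = 0.0147). With voom it was the 1 gene of the list that passed, beside 842 of all genes tested. VANGL1 also passed with protein-coding genes only, after removal of the GC trend and with array weights of either kind.

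Of 19 further genes of the destruction complex and of beta-catenin turnover 17 were tested, with a median of -0.07. At an unadjusted p under 0.05 (limma) 2 were lower and 2 higher, and 1 passed the threshold. CSNK1A1, the CK1 kinase that primes beta-catenin for GSK3, was at 17.4, 17.1 and 18.3 FPKM in siC and at 13.3, 12.4, 13.4 and 12.7 FPKM in siIGF2BP1. It fell by 0.44 on the log2 scale to 73.6% of siC (SE 0.06, limma adjusted p = 0.00553). GSK3B, named after its values were seen, was at 15.9 FPKM in siC and 12.2 FPKM in siIGF2BP1 (log2 difference -0.37, limma adjusted p = 0.0469). It passed without siC replicate 3 (-0.26, limma adjusted p = 0.00828), after removal of the GC trend and with array weights of either kind. PPP2R1A, a scaffold of the phosphatase PP2A, and CSNK1G2, a membrane-bound CK1, differed on the log2 scale by 0.19 and 0.26 (limma adjusted p = 0.0627 and 0.174).

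Of 18 nuclear factors 15 were tested, with a median of -0.02, and 1 passed. CTNNBIP1, which binds beta-catenin and keeps TCF factors from it, was at 14.8, 13.8 and 13.6 FPKM in siC and at 6.68, 6.63, 6.60 and 7.22 FPKM in siIGF2BP1. The siIGF2BP1 libraries were all near 48.2% of the siC mean, and CTNNBIP1 fell by 1.04 on the log2 scale (SE 0.06, limma adjusted p = 0.000438), in 7 of 7 fits that left out 1 library. HDAC1, a histone deacetylase, and the corepressor TLE1 differed on the log2 scale by 0.13 and -0.11 (limma adjusted p = 0.335 and 0.387).

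Of 18 target genes reported in various tissues 13 were tested, with a median of 0.08, and 3 passed, 2 higher and 1 lower. At an unadjusted p under 0.05 (limma) 3 were lower and 5 higher. Genes of this list respond to other pathways too. TNFRSF19, a membrane receptor of the TNF receptor family, was at 2.03, 2.16 and 3.07 FPKM in siC and at 8.38, 7.77, 8.24 and 7.25 FPKM in siIGF2BP1. It rose 3.27-fold, by 1.69 on the log2 scale (SE 0.14, limma adjusted p = 0.00112), the largest change among the 82. JUN, a subunit of the AP-1 factor, rose from 14.0 to 22.3 FPKM (log2 change 0.67, limma adjusted p = 0.00125). SOX9, a transcription factor of liver progenitors and bile ducts, fell by 0.73 on the log2 scale, from 31.7 to 18.9 FPKM (limma adjusted p = 0.00512). CCND1 and BIRC5, the most abundant of the list, differed on the log2 scale by -0.26 and 0.04 (limma adjusted p = 0.0454 and 0.810), and BIRC5 by -0.04 without siC replicate 3. BAMBI, a decoy receptor for TGF-beta named after its values were seen, had a log2 difference of 0.39 (limma adjusted p = 0.0105) and passed without siC replicate 3 (0.41, limma adjusted p = 0.00461).

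Of 12 targets of the central-vein hepatocyte programme 5 were tested, with 2 higher and none lower at an unadjusted p under 0.05 (limma). Their median was 0.04, and 1 passed. OAT, an enzyme of ornithine metabolism, rose from 31.4 ± 1.22 FPKM (SD, n = 3) to 42.7 ± 1.42 FPKM (SD, n = 4), or 1.36-fold (log2 change 0.44, limma adjusted p = 0.00488). GLUL, the glutamine synthetase that marks these hepatocytes in liver, averaged 41.1 ± 5.85 FPKM in control cells (SD, n = 3) and 39.6 ± 2.22 FPKM after depletion (SD, n = 4). Its log2 change was -0.05 (95% interval from -0.30 to 0.20, limma adjusted p = 0.834). The most abundant gene of the list, ALDH1A1, had a log2 change of 0.02 (limma adjusted p = 0.950).

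Of 6 cadherins and catenins of cell junctions, the other site of beta-catenin, all were tested and none passed, with 1 lower and none higher at an unadjusted p under 0.05 (limma) and a median of 0.01. CTNND1 and CTNNA1 differed on the log2 scale by -0.04 and 0.06 (limma adjusted p = 0.737 and 0.692), and CTNNA1 by -0.03 without siC replicate 3. The gene at an unadjusted p under 0.05, named after its values were seen, was CDH1, the epithelial cadherin, at 13.5, 12.7 and 8.54 FPKM in siC and at 7.36, 6.67, 7.01 and 8.16 FPKM in siIGF2BP1. The siC replicate 3 value lay close to the siIGF2BP1 libraries, and the log2 difference was -0.63 (limma adjusted p = 0.0510). CDH1 passed the threshold without siC replicate 3 (-0.84, limma adjusted p = 0.00198).

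**Figure D4:**
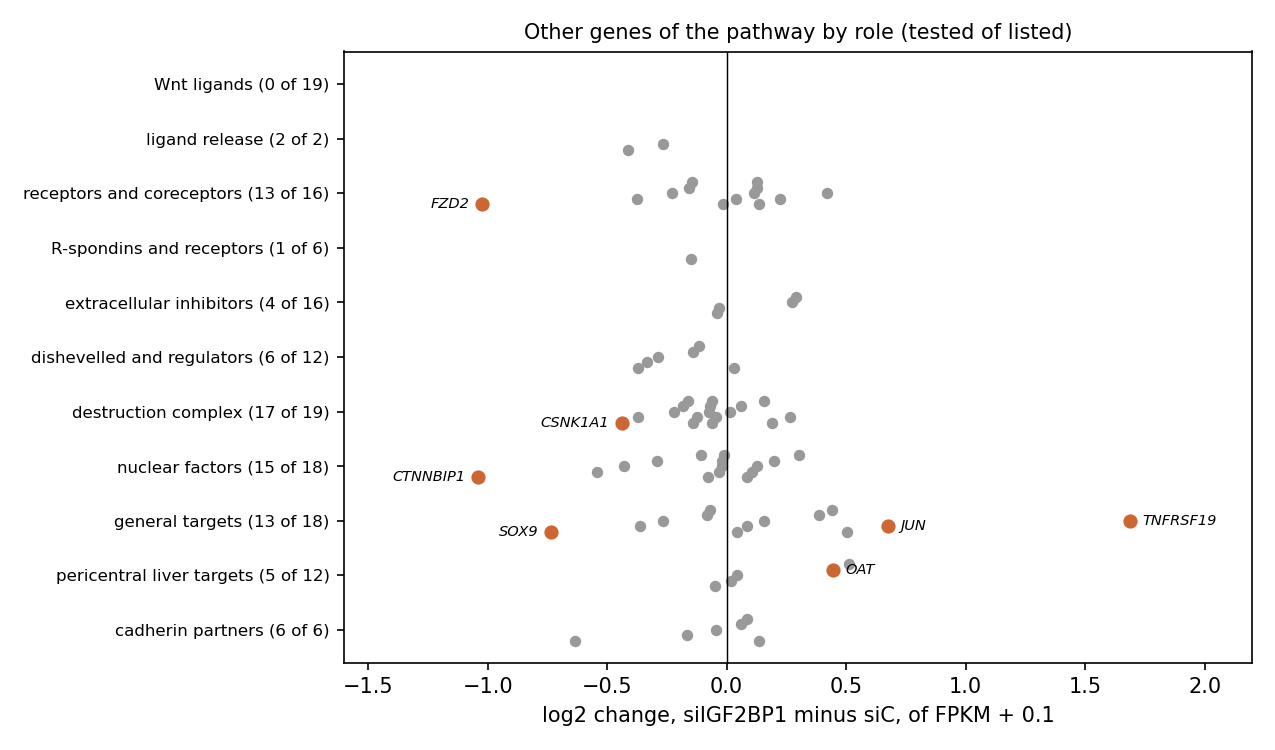
Log2 change (horizontal axis, siIGF2BP1 minus siC, of FPKM + 0.1) of the 82 other pathway genes tested, in 11 lists by role (rows, with the number tested of those listed). Points are genes, spread vertically for legibility, and orange marks the 7 with an adjusted p of at most 0.01. TNFRSF19 (1.69) is farthest to the right, and CTNNBIP1 (-1.04) and FZD2 (-1.02) are farthest to the left.

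The calls among these lists depended on the libraries. Without siC replicate 3, 14 of the list genes passed, and 22 or 37 passed with array weights estimated gene by gene or by REML. The counts over all 14839 genes moved too, from 583 in the main fit to 1523, 2744 and 5414 in that order. When 1 of the other 6 libraries was left out, 3 list genes passed (CTNNBIP1, TNFRSF19 and JUN), beside 129 to 195 of all genes. In those fits CSNK1A1, FZD2, OAT and SOX9 no longer passed, at an adjusted p of at most 0.0333 (limma). Processing mattered as well. CSNK1A1 and SOX9 lost the call with quantile normalization, where 539 of all genes passed. CSNK1A1 lost it without the mean-variance trend (501 of all genes passed) and SOX9 without the filter (352 passed).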

How the data were processed

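Total RNA was depleted of ribosomal RNA and sequenced from strand-aware libraries. According to the methods and processing notes, the authors clipped reads (Cutadapt 1.14), aligned them to GRCh38 (HISAT2 2.1.0), counted them per gene (featureCounts 1.5.3, Ensembl annotation) and used edgeR 3.18.1 with TMM. Whether counting used strand is not given in the sources used here, so antisense partners cannot be told apart. The deposited table holds FPKM per library, scaled by the authors to gene length and TMM-scaled library size, and the authors' fold changes, p-values and FDR, which were not used. Groups came from the sample titles.

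The product of FPKM and gene length gave whole reads (within 0.01) for at least 99.875% of values above 0, hence the depth. FPKM were tested on a log2 scale with limma 3.58.1 (trend, two-sided, no covariates, Benjamini-Hochberg over all genes tested) in R 4.3.3, with a filter of 1 FPKM, a pseudocount of 0.1 and a threshold of 0.01. The fit was tried on simulated reads without an outlying library or a GC trend, so this does not cover such features of the real libraries. Array weights were estimated by REML and gene by gene, the second after the calls of the first were seen. GC content is that of the longest GENCODE transcript, available for 99.1% of genes tested, and coordinates are from GENCODE on GRCh38, the build of the files.

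Members and lists were chosen with earlier results of these data known. Named genes are all 10 members, IGF2BP1 and, per list, those past the threshold and the 2 with the highest FPKM. Others are marked. A leukocyte marker of the original list is not reported here.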

Additional observations from a re-analysis of the deposited data

Results flagged for a closer look

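Among the 4 siIGF2BP1 libraries, 37 genes were examined for a library that lay far from the rest, and 4 exceeded Dixon's 95% critical value for the gap to the nearest library as a share of the range, where chance gives about 1.85. The 3 siC libraries were not examined in this way. For APC, replicate 4 (6.14 FPKM) was lowest and its gap made up 0.984 of the range, while the other 3 libraries lay between 6.54 and 6.55 FPKM. For TCF7L2, replicate 2 (4.75 FPKM) was highest, with a gap of 0.957 of the range. For CSNK1G2, replicate 2 (23.2 FPKM) was lowest, with a gap of 0.865 of the range. For CTNNBIP1, replicate 4 (7.22 FPKM) was highest, with a gap of 0.876 of the range. In replicate 2 of siIGF2BP1, distances from the group followed GC content across genes with a Spearman's rho of -0.386, and its part in these values was not tested. Without replicate 2, the log2 change of TCF7L2 was -0.36 (limma adjusted p = 0.490).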

How the results depend on the processing

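Over 22 alternatives LGR5 (0.74 to 0.90), CTNNBIP1 (-1.07 to -0.95), TNFRSF19 (1.39 to 1.86), JUN (0.60 to 0.73) and IGF2BP1 (-2.40 to -2.31) kept their direction, and their side of the threshold except with the replicate block. With the replicate block the log2 change of IGF2BP1 was -2.36 (limma adjusted p = 0.0909), and -2.35 when the GC trend was also removed (limma adjusted p = 0.0547). In either fit 0 of all genes passed (limma), and so 0 members and 0 list genes. At an unadjusted p under 0.05 (limma) were 1 of 7 members and 19 or 22 of 82 list genes. Beside them stood 2389 of all 14839 genes and, with the GC trend also removed, 3101 of 14711. Distances from the group mean correlated at -0.0263, -0.118 and -0.111 between same-numbered libraries, and from -0.169 to 0.201 between the others. Such distances balance out within each small group, so these correlations cannot decide whether same-numbered libraries were paired. The titles give replicate numbers only. The number of list genes past the threshold, 7, was 22 with array weights, 37 with array weights by REML and 11 with protein-coding genes only. It was 14 after removal of the GC trend, 18 at a threshold of 0.05, and from 3 to 14 when 1 library was left out. Over all genes the number, 583, was 2744, 5414 and 871 with the same choices of weights and genes. It was 1029 after removal of the GC trend and from 129 to 1523 when 1 library was left out. How many of all genes passed at a threshold of 0.05 was not counted. The 18 list genes at that threshold therefore cannot be set beside a share of all genes.

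REML, the default method for array weights, was the first one run. It did not converge, and 2 members passed under it (LGR5 and ZNRF3), beside 5414 of all genes tested. The gene-by-gene method, under which 1 member and 2744 of all genes passed, was put in its place after these calls had been seen. Both are given. A filter at 0.1 FPKM and the fits without a filter combined with another choice were also added after seeing the data.

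Small log2 changes turned direction. With array weights, gene by gene and by REML, these were CTNNB1 (0.068 and 0.064), APC (0.069 and 0.055), BIRC5 (-0.032 and -0.033) and CTNNA1 (-0.012 and -0.0073). With quantile normalization they were CTNNB1 (0.13), GLUL (0.023) and CTNND1 (0.037), and with median centring CTNNB1 (0.024). When 1 library was left out the log2 change ran from -0.052 to 0.077 for CTNNB1, from -0.13 to 0.082 for APC, from -0.0059 to 0.19 for AXIN1, from -0.45 to 0.054 for TCF7L2, from -0.049 to 0.22 for ZNRF3, from -0.24 to 0.0040 for LGR4, from -0.043 to 0.090 for BIRC5, from -0.053 to 0.12 for ALDH1A1, from -0.17 to 0.019 for GLUL and from -0.026 to 0.11 for CTNNA1. The cause was not tested. Of 779 values for 36 single genes, 680 kept direction and side of the threshold, 44 lost and 29 gained the call, and 26 turned. Few reads limit the precision for LEF1, AXIN2 and NKD1.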
